A study of Sus scrofa with 6 samples.

Results

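The Hedgehog ligands, the receptor PTCH1, the signal transducer SMO and the GLI transcription factors were described in RNA of pig embryos, as the core of 1 signalling pathway. Members were all transcript rows of the deposited table whose best protein match was described with "patched homolog", "smoothened homolog", "zinc finger protein GLI" or "hedgehog". This wording found 22 of the 20523 rows. They came from 16 genes, of 8717 genes that could be named in the table, and each gene was represented by its row with the most reads. The wording is broader than the pathway: 2 of the 3 rows with "patched homolog" read "dispatched homolog" (DISP1 and DISP2), and 4 of the 12 rows with "zinc finger protein GLI" belonged to GLIS1, GLIS2 and GLIS3. The row of GLI3 with the most reads was described in other words, as a GLI3-like transcriptional activator, and its values are given beside the member row.

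The study compared whole Large White embryos of 17.5 to 18.0 days post coitum that were homozygous for the mutant alleles of 2 quantitative trait nucleotides of VRTN (QQ) with embryos that were wild type at both (WT, also written qq). In pigs, variants of VRTN, the gene of vertnin, are known to go with different counts of thoracic vertebrae. There were 3 QQ and 3 WT embryos, 1 RNA-seq library each, with 12.2 to 13.5 uniquely mapped reads (in units of 1000000) in the QQ libraries and 12.5 to 13.4 in the WT libraries. The labels name no dam or litter, so p-values measure only the spread between these 6 embryos. The families of the embryos are not given, so family and genotype cannot be told apart. VRTN itself had 2, 0 and 1 reads in the QQ libraries and no read in the 3 WT libraries, so its level did not check the labels. On the first principal component, which also ordered the groups, the QQ libraries lay between -29.99 and -10.9, whereas WT replicates 1, 2 and 3 lay at 9.12, -1.004 and 61.7, so that WT replicate 3 was far from all others.

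In vertebrate embryos a Hedgehog ligand binds PTCH1 and so lifts the block that PTCH1 places on SMO, a membrane protein of the primary cilium. Active SMO stops the GLI proteins from being cut into repressors, so that they switch on target genes, among them PTCH1, HHIP and GLI1. At the age when somites form, Sonic hedgehog made in notochord and floor plate patterns the ventral neural tube and the sclerotome, the part of the somite that forms vertebrae.

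PTCH1 and HHIP had higher levels in every QQ library than in any WT library. Between the groups, edgeR's estimates of QQ over WT after scaling were 1.33-fold and 1.66-fold. PTCH1 and HHIP are the receptor and the ligand trap, and both are known target genes. GLI2 and the member row of GLI3 also lay wholly above WT, as did 18.8% of all 13957 tested rows. SMO, the GLI1 row with the most reads and the ligands SHH and IHH overlapped between the groups, whereas a shorter GLI1 row did not. None of the 11 members with enough reads passed edgeR's quasi-likelihood test at an adjusted p of 0.05, where 0% of the 13957 tested rows were called in either direction. Their Benjamini-Hochberg adjusted p-values ran from 0.233 to 0.990. DESeq2, which called 0.835% of its rows higher and 0.0649% lower in QQ, called no member either. Levels below are RPKM, reads per 1000 bases of transcript and 1000000 mapped reads, as deposited, and fold changes are log2 values of QQ over WT with their standard errors.

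PTCH1 (ENSSSCT00000029331, 7723 bases) is the receptor that holds SMO inactive in the absence of ligand. It had 3227, 3189 and 3538 reads in the QQ libraries, against 2763, 2407 and 1934 reads in the WT libraries. In RPKM these were 31.0, 32.8 and 37.5 in QQ and 28.6, 24.3 and 18.6 in WT. The lowest QQ library lay just above the highest WT library, and the spread was wider among the WT embryos, with WT replicate 3 lowest. PTCH1 averaged 33.8 ± 3.37 RPKM in QQ and 23.8 ± 5.02 RPKM in WT (SD, n = 3 each). The log2 fold change was 0.41 ± 0.14, with a 95% interval of 0.085 to 0.74, an unadjusted p of 0.0189 and an adjusted p of 0.233 in edgeR's quasi-likelihood test. By unadjusted p PTCH1 ranked 1094 among the 13957 tested rows, and 11.0% of them were higher and 9.30% lower in QQ at an unadjusted p under 0.05. Reads covered 98.6% to 99.6% of the transcript in QQ and 97.3% to 98.2% in WT. Without WT replicate 3 the log2 fold change was 0.28.

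HHIP (ENSSSCT00000009905, 2293 bases) encodes a membrane protein that binds Hedgehog ligands and keeps them from the receptor. Its reads were 246, 272 and 357 in QQ, against 177, 190 and 135 in WT. The levels were 7.96, 9.43 and 12.8 RPKM in QQ and 6.18, 6.45 and 4.38 RPKM in WT. The groups did not overlap, QQ replicate 3 was highest and WT replicate 3 lowest, as for PTCH1. The means were 10.05 ± 2.46 RPKM in QQ and 5.67 ± 1.13 RPKM in WT (SD, n = 3 each). The log2 fold change of 0.73 ± 0.21 had a 95% interval of 0.26 to 1.19, an unadjusted p of 0.0061 and an edgeR adjusted p of 0.233. It was 0.59 without WT replicate 3. HHIP had the largest fold change of the 11 tested members. Its second row, of 366 bases, had 27, 36 and 43 reads in QQ and 23, 22 and 21 reads in WT.

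**Figure D1:**
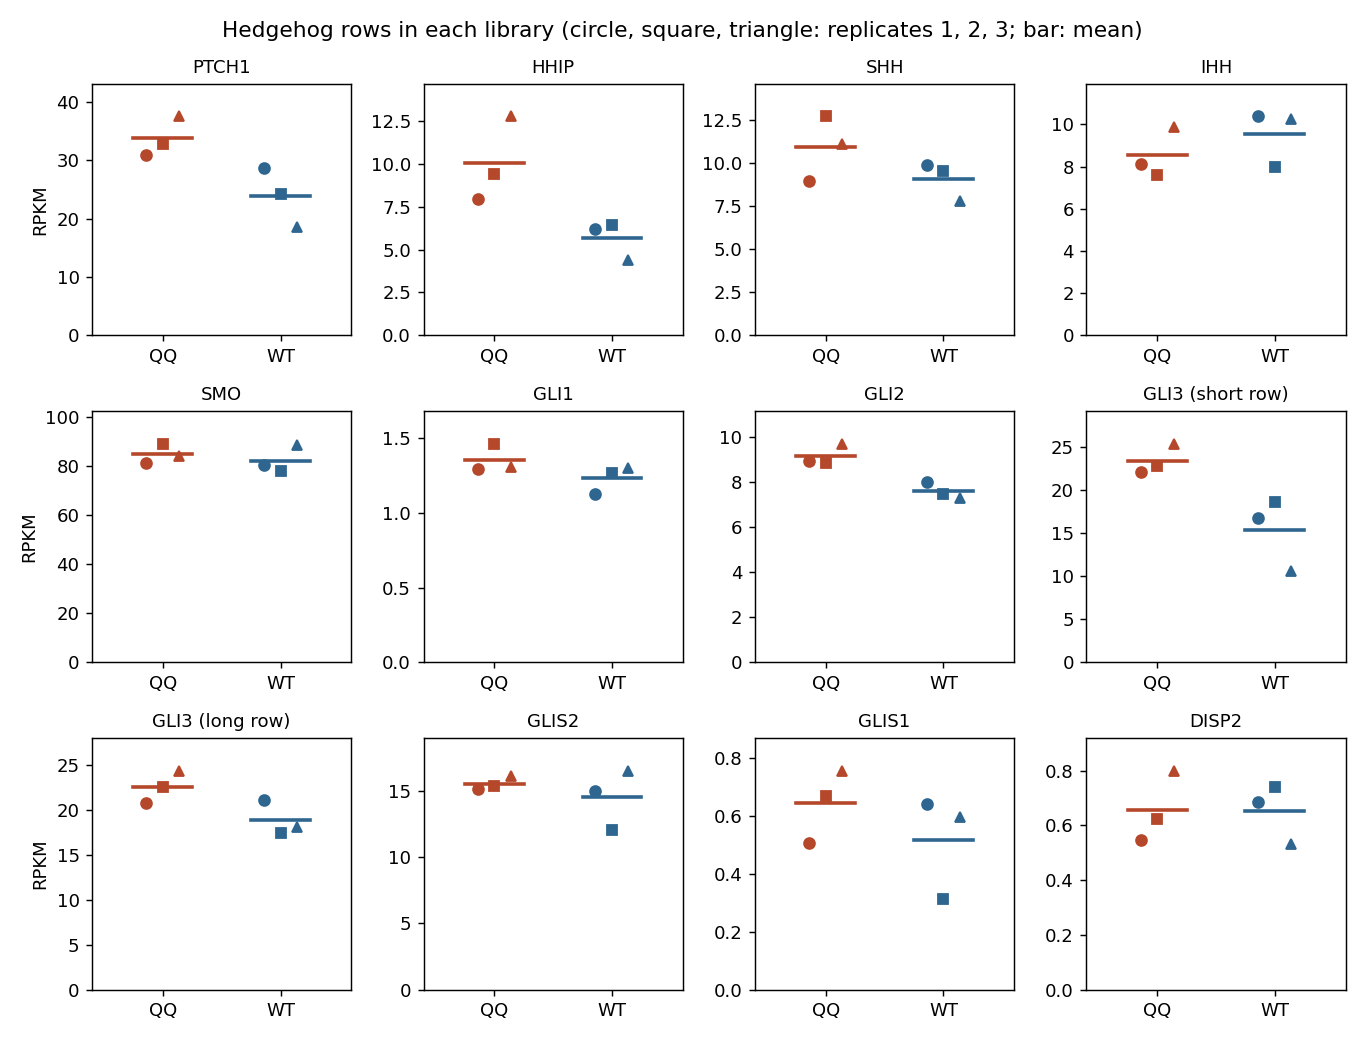
Level (RPKM, linear axis from 0) of 11 Hedgehog members and of the long GLI3 row in each library. Points are single embryos, marked by replicate number, and bars are means of 3 embryos; QQ lies wholly above WT for PTCH1, HHIP, GLI2 and the short GLI3 row.

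Of the 11 tested members, 4 had QQ levels wholly above the WT levels (PTCH1, HHIP, GLI2 and the member row of GLI3) and 0 had them wholly below. Over all 13957 tested rows, 18.8% lay wholly above and 9.07% wholly below. By fold change, 7 members were higher and 4 lower in QQ, against 49.7% higher and 50.3% lower over all tested rows, and their median log2 fold change was 0.17, against -0.0028 over all rows. WT replicate 3 was the lowest library for 6 of the 11, and for 41.4% of all tested rows. Without it, 9 members were higher and 2 lower, with a median of 0.13. The members' median moved more with other libraries: it was 0.044 without WT replicate 2, and 0.070 or 0.089 when QQ replicate 2 or 3 was omitted. With the length trend removed it was 0.062. The counts also depend on scaling: without composition factors 10 of 11 members, and 8445 of the 13957 rows, were higher in QQ, with a median over all rows of 0.093.

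**Figure D2:**
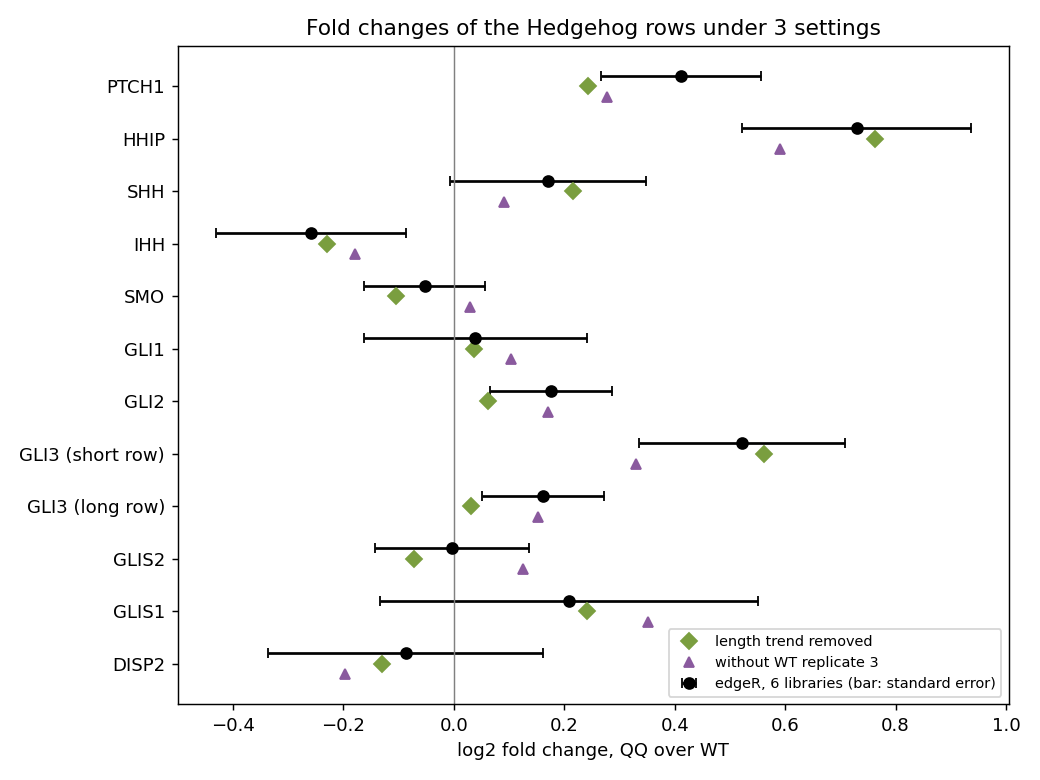
Log2 fold change (QQ over WT) of each tested Hedgehog member and of the long GLI3 row in edgeR with all 6 libraries (black, bars: standard error), with the trend with transcript length removed (green) and without WT replicate 3 (purple). HHIP and the short GLI3 row lie at 0.33 or more in all 3 settings, PTCH1 lies at 0.41, 0.24 and 0.28, and SMO and GLIS2 lie close to 0.

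The ligands differed by less than the spread between embryos. SHH (ENSSSCT00000017875, 1155 bases), the ligand of notochord, floor plate and limb bud, had 8.99, 12.7 and 11.14 RPKM in QQ and 9.91, 9.57 and 7.79 RPKM in WT. QQ replicate 1 lay below WT replicates 1 and 2, so the groups overlapped. The log2 fold change was 0.17 ± 0.18, with a 95% interval of -0.23 to 0.57 and an edgeR adjusted p of 0.575. IHH (ENSSSCT00000017645, 2546 bases), the ligand of gut endoderm and later of cartilage, had 8.13, 7.59 and 9.88 RPKM in QQ and 10.4, 7.98 and 10.3 RPKM in WT. QQ replicate 3 lay close to WT replicates 1 and 3, and the log2 fold change was -0.26 ± 0.17 (95% interval -0.65 to 0.13, edgeR adjusted p = 0.384). SHH and IHH had similar levels, each between 7.59 and 12.7 RPKM. DHH, the ligand of developing gonads and Schwann cells, was too low to test, with 9, 6 and 2 reads in QQ and 5, 1 and 5 reads in WT.

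Of the members that lipidate or release the ligands, DISP1 and the acyltransferase row had 9 reads or fewer in every library. DISP1, the transporter that releases lipid-modified ligand from the cell, had 2, 7 and 9 reads in QQ and 5, 4 and 3 reads in WT, on a row of only 513 bases. The row described as a hedgehog acyltransferase had 5, 3 and 1 reads in QQ and 0, 2 and 3 reads in WT. Neither could be tested. For the library with 0 reads, the limit that a count of 0 allows is 3 reads, or 0.240 CPM (counts per 1000000 reads). DISP2, a relative of DISP1, had 0.547, 0.624 and 0.799 RPKM in QQ and 0.686, 0.741 and 0.531 RPKM in WT. The groups overlapped, with a log2 fold change of -0.087 ± 0.25 (95% interval -0.65 to 0.47). SCUBE1, no member but the most abundant gene of the list of ligand processing and release, encodes a secreted protein of the family that helps release the ligand. It had 813, 967 and 835 reads in QQ and 791, 822 and 698 reads in WT, which overlapped, and a log2 fold change of 0.10 ± 0.12. In whole-embryo RNA, few cells with a high level and many cells with a low level cannot be told apart, and neither can fewer cells of a type and less RNA per cell.

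SMO (ENSSSCT00000018039, 4401 bases) had the highest level of all members. It had 81.4, 89.1 and 84.2 RPKM in QQ and 80.2, 77.9 and 88.5 RPKM in WT. The groups overlapped, and here WT replicate 3 was the second highest library, where for PTCH1 it was the lowest. The means were 84.9 ± 3.90 RPKM in QQ and 82.2 ± 5.57 RPKM in WT (SD, n = 3 each). The log2 fold change after TMM scaling was -0.053 ± 0.11, with a 95% interval of -0.30 to 0.19 and an edgeR adjusted p of 0.786. Its sign turned to 0.046 when only library totals were used for scaling.

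Of the GLI factors, GLI2 and GLI3 were well measured. GLI2 (ENSSSCT00000017133, 5903 bases), in mouse the main activator of the pathway, had 8.91, 8.85 and 9.69 RPKM in QQ and 7.99, 7.47 and 7.28 RPKM in WT. The groups did not overlap, and the replicates lay closer together than for PTCH1. The means were 9.15 ± 0.468 RPKM in QQ and 7.58 ± 0.366 RPKM in WT (SD, n = 3 each). The log2 fold change was 0.18 ± 0.11, with a 95% interval of -0.072 to 0.43 and an edgeR adjusted p of 0.360. A second row, of 292 bases, had 27, 16 and 15 reads in QQ and 14, 10 and 6 reads in WT.

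GLI3, which in mouse limb and neural tube acts mostly as a repressor, was split over a short and a long row whose fold changes differed in size. The short member row (ENSSSCT00000018246, 1710 bases) had 22.1, 22.7 and 25.3 RPKM in QQ and 16.7, 18.6 and 10.6 RPKM in WT. The groups did not overlap, and WT replicate 3 was far below the rest. Its log2 fold change was 0.52 ± 0.19, with an unadjusted p of 0.0200 and an edgeR adjusted p of 0.233, and was 0.33 without WT replicate 3. The long row (ENSSSCT00000018248, 6346 bases) had 20.8, 22.5 and 24.3 RPKM in QQ and 21.1, 17.4 and 18.1 RPKM in WT. Here WT replicate 1 lay above QQ replicate 1, and the log2 fold change was 0.16 ± 0.11 (edgeR adjusted p = 0.395). The short row minus the long row, in log2 CPM, was -1.79, -1.86 and -1.82 in QQ and -2.21, -1.77 and -2.63 in WT. The WT values lay on both sides of the QQ values, and the exact two-sided permutation p was 0.4, where 3 against 3 embryos cannot go below 0.1. With the reads of both rows summed, GLI3 had 2289, 2286 and 2414 reads in QQ and 2033, 1824 and 1786 reads in WT. The log2 fold change of that sum was 0.23 ± 0.11, with an edgeR adjusted p of 0.252.

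GLI1 is the GLI factor that is itself a target gene, and its transcript is often used as a readout of the pathway. GLI1 was split over 3 rows that differed in level per length. Its row with the most reads (ENSSSCT00000000478, 3263 bases) had 57, 60 and 52 reads in QQ and 46, 53 and 57 reads in WT. These were 1.30, 1.46 and 1.31 RPKM in QQ and 1.13, 1.27 and 1.30 RPKM in WT, with only 14.1% to 17.0% of the transcript covered. The groups overlapped by WT replicate 3, and the log2 fold change was 0.039 ± 0.20, with a 95% interval of -0.42 to 0.49. A pair of short GLI1 rows, of 443 and 334 bases, had higher levels per length, of 6.55 to 8.88 and 6.90 to 10.23 RPKM over the 6 libraries. The row of 443 bases, with 79.5% to 95.3% covered, had 7.53, 8.61 and 8.88 RPKM in QQ and 7.23, 7.03 and 6.55 RPKM in WT. Its groups did not overlap, and its log2 fold change was 0.17 ± 0.21. The groups of the row of 334 bases overlapped. With the 3 rows summed, GLI1 had 141, 151 and 138 reads in QQ and 124, 126 and 127 reads in WT. Every QQ sum lay above every WT sum before scaling, and the log2 fold change after scaling was 0.11 ± 0.16 (edgeR adjusted p = 0.677).

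The zinc finger genes that the wording also caught carry GLI-like fingers and are not core members of the pathway. GLIS2 had 15.1, 15.3 and 16.1 RPKM in QQ and 14.998, 12.1 and 16.5 RPKM in WT, and the groups overlapped. Its log2 fold change was -0.0034 ± 0.14 (95% interval -0.32 to 0.31). GLIS1 had 10 to 23 reads per library and a log2 fold change of 0.21 ± 0.34. GLI4, with 4 to 8 reads, and GLIS3, with 1 to 8 reads, were too low to test.

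In order of mean level over the 6 libraries, SMO stood first, followed by PTCH1, the GLI3 rows, GLIS2, SHH, IHH, GLI2 and HHIP. The values of SHH, IHH, GLI2 and HHIP overlapped, so these neighbours did not differ beyond their spread. The ranges of PTCH1 and both GLI3 rows also overlapped, as did those of the short GLI3 row and GLIS2, and of GLIS2 and SHH. The main GLI1 row, DISP2 and GLIS1 lay between 0.312 and 1.46 RPKM, below all of these.

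How members moved relative to each other was compared within libraries, which removes the scaling between them but not a trend with transcript length. PTCH1 minus SMO, in log2 CPM, was -0.58, -0.63 and -0.35 in QQ and -0.67, -0.87 and -1.43 in WT. All QQ values lay above all WT values, with QQ replicate 2 close to WT replicate 1 and WT replicate 3 far below. The difference between the groups was 0.47, at the smallest exact two-sided permutation p that 3 against 3 allows, 0.1, or 0.32 adjusted over the 8 pairs compared. HHIP minus SMO gave 0.75, also at an exact p of 0.1. PTCH1 minus GLI1, by the GLI1 row with the most reads, gave 0.40 with an exact p of 0.3. With the reads of the GLI1 rows summed, PTCH1 minus GLI1 was 0.30. PTCH1 minus HHIP gave -0.28 with an exact p of 0.2. Without WT replicate 3, PTCH1 minus SMO was 0.25 and PTCH1 minus GLI1 was 0.19. With the length trend removed, PTCH1 minus SMO was 0.35 and PTCH1 minus GLI1 was 0.21.

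Transcript length moved with the fold change in these libraries. Among tested rows over 6000 bases, 77.6% of 691 were higher in QQ (median log2 fold change 0.21), against 43.2% and a median of -0.063 for the 4205 rows over 1000 and up to 2000 bases. In rows over 6000 bases the median deviation of WT replicate 3 was -0.26 and that of QQ replicate 3 was 0.17. PTCH1, of 7723 bases, lies in that range, and so does the long GLI3 row. With each library's trend with length removed, the log2 fold change of PTCH1 was 0.24, that of GLI2 0.062 and that of the long GLI3 row 0.030. The unadjusted p of PTCH1 in edgeR's test was then 0.0547. HHIP and the short GLI3 row, of 2293 and 1710 bases, had 0.76 and 0.56. The trend was taken by the length of each row, and GLI3 also has the row of 6346 bases. The correction of the short row therefore need not match the transcript that its reads came from. With the trend removed and WT replicate 3 left out, PTCH1 had 0.17 and HHIP 0.61. The part of length or of RNA quality in the PTCH1 difference was not tested further.

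**Figure D3:**
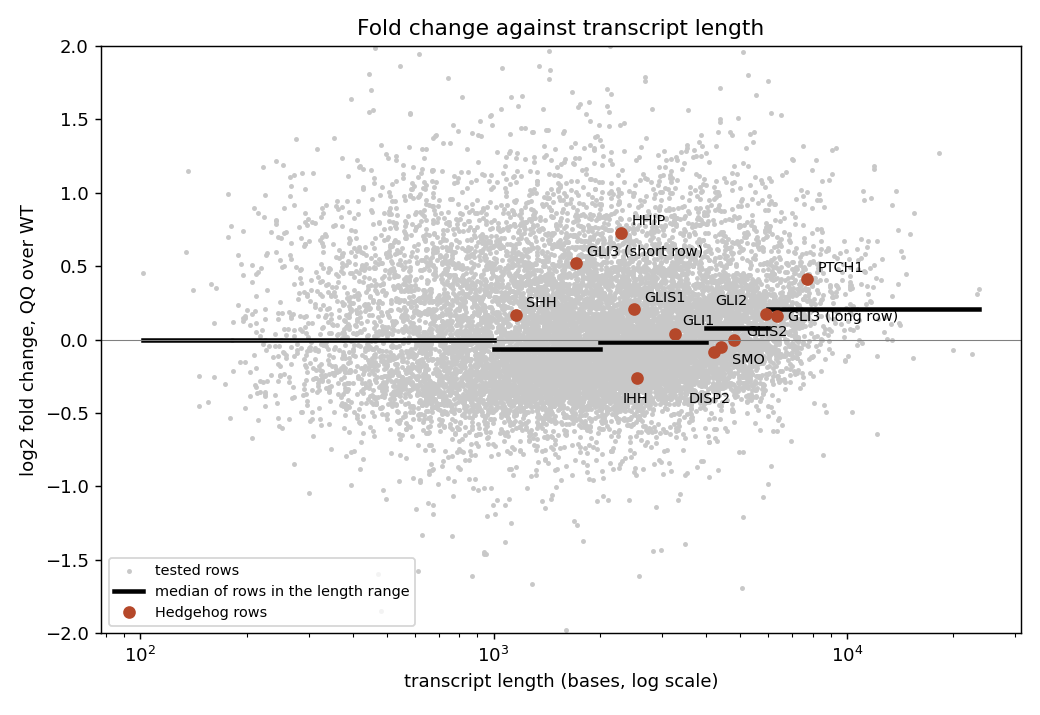
Log2 fold change (QQ over WT) against transcript length (bases, log axis) for the tested rows, with the Hedgehog rows in red and black bars for the median in each length range. PTCH1 lies among the long rows, whose median was 0.21, whereas HHIP and the short GLI3 row lie among rows with medians near 0; 11 rows beyond ±2 are outside the plot.

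The genes whose levels followed PTCH1 most closely over the 6 libraries were FKBP14, FAT1, INO80, MAML1 and EEA1, with Pearson r from 0.988 to 0.992 among 4739 genes with at least 5 RPKM. They encode an endoplasmic reticulum folding enzyme, an atypical cadherin, a chromatin remodeller, a Notch coactivator and an endosome tether. Their rows were 3544 to 14672 bases long. The order of the libraries was shared: FAT1 had 29.3, 30.2 and 38.3 RPKM in QQ and 27.8, 22.5 and 17.1 RPKM in WT. With PTCH1, HHIP had r = 0.920 and GLI2 had r = 0.827, whereas SMO had r = -0.717. An r of at least 0.9 was held by 5.32% of the genes, so a value like that of HHIP was not rare, and all points share the same 6 libraries.

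Other genes of the pathway were taken from lists by role, and none of their tested members passed edgeR's test. Of the receptors, co-receptors and ligand traps, 7 of 8 tested genes were higher and 1 was lower in QQ, with a median log2 fold change of 0.21 that includes PTCH1 and HHIP. With the length trend removed, or without QQ replicate 1, QQ replicate 3 or WT replicate 2, 6 of 8 were higher. The medians were then 0.17, 0.27, 0.15 and 0.18. Omitting any other single library left 7 of 8 higher. CDON, a co-receptor that hands ligand to PTCH1, had 18.4 ± 2.76 RPKM in QQ and 14.4 ± 1.72 RPKM in WT, and overlapped. BOC, its close relative, had 27.9 ± 2.62 RPKM in QQ and 24.6 ± 1.88 RPKM in WT (log2 fold change 0.086 ± 0.12). GPC3, a glypican that competes with PTCH1 for ligand, was the most abundant at 111 ± 24.0 RPKM in QQ and 104 ± 14.5 RPKM in WT. LRP2, a co-receptor of the neural tube, had 0.44 ± 0.35, and MGRN1, a ubiquitin ligase, had -0.12 ± 0.11.

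Around SMO, 3 of 9 tested genes were higher and 6 lower, with a median of -0.090. GPR161, a ciliary receptor that raises cyclic AMP and keeps the pathway off, had 274, 301 and 279 reads in QQ and 159, 238 and 98 reads in WT. The groups did not overlap and WT replicate 3 was again lowest. GPR161 had 13.6 ± 1.13 RPKM in QQ and 7.83 ± 3.43 RPKM in WT, a log2 fold change of 0.71 ± 0.27 and an edgeR adjusted p of 0.233, and 0.44 without WT replicate 3. GRK2, the kinase that phosphorylates active SMO, had a log2 fold change of -0.21 ± 0.12, the arrestin ARRB2 had -0.23 ± 0.14, and EVC, a ciliary partner of SMO, had -0.36 ± 0.28.

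Of the genes that cut, phosphorylate or hold GLI proteins, 12 of 23 tested were higher and 11 lower, with a median of 0.0095. SUFU, which holds GLI proteins in the cytoplasm, had 14.8 ± 1.07 RPKM in QQ and 11.9 ± 0.465 RPKM in WT without overlap, with a log2 fold change of 0.22 ± 0.14 and an edgeR adjusted p of 0.366. The kinase CSNK1E had 30.9 ± 0.667 RPKM in QQ and 36.3 ± 2.01 RPKM in WT without overlap, with a log2 fold change of -0.33 ± 0.11 and an edgeR adjusted p of 0.233. The protein kinase A subunit PRKACA had -0.25 ± 0.12 and its regulatory partner PRKAR1A 0.11 ± 0.11. The kinases GSK3B and ULK3, both able to phosphorylate GLI proteins, had 0.37 ± 0.18 and -0.34 ± 0.14, and the ubiquitin ligase ITCH, on a row of 325 bases, had 0.83 ± 0.32.

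Usual target genes of the pathway, a list that holds PTCH1 and HHIP, went in both directions. Of 25 tested, 16 were higher and 9 lower, or 64% and 36%, against 49.7% and 50.3% of all tested rows. Their median log2 fold change was 0.029. Wholly above WT lay 6 and wholly below 1, or 24% and 4%, against 18.8% and 9.07% of all tested rows. Whether the list followed PTCH1 was not tested. Without WT replicate 1, 13 of 26 target genes were higher. PTCH1 and HHIP had the smallest unadjusted p of this list. At an unadjusted edgeR p under 0.05, 2 of the 25 were higher and 2 lower in QQ. These were 8% and 8%, against 11.0% and 9.30% of all tested rows. SFRP1, a secreted Wnt antagonist and the most abundant of the list, had 116 ± 9.61 RPKM in QQ and 126 ± 5.25 RPKM in WT, a log2 fold change of -0.21 ± 0.12. Cilium genes, on which vertebrate Hedgehog signalling depends, were split evenly, with 28 of 57 higher and 29 lower. IFT122, a subunit of the retrograde transport complex, had 21.3 ± 1.69 RPKM in QQ and 29.2 ± 3.26 RPKM in WT without overlap (log2 fold change -0.55 ± 0.14, edgeR adjusted p = 0.233). TTBK2, the kinase that starts cilium assembly, had 417, 544 and 519 reads in QQ and 219, 270 and 73 reads in WT. It had a log2 fold change of 1.32 ± 0.37, an edgeR adjusted p of 0.233 and a DESeq2 adjusted p of 0.0318, and was 0.93 without WT replicate 3. Of the 18 genes of cholesterol synthesis, whose product modifies the ligands and binds SMO, 7 were higher and 11 lower. SC5D, a late desaturase, had 0.36 ± 0.12, and EBP, a sterol isomerase one step earlier, had -0.35 ± 0.13.

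**Figure D4:**
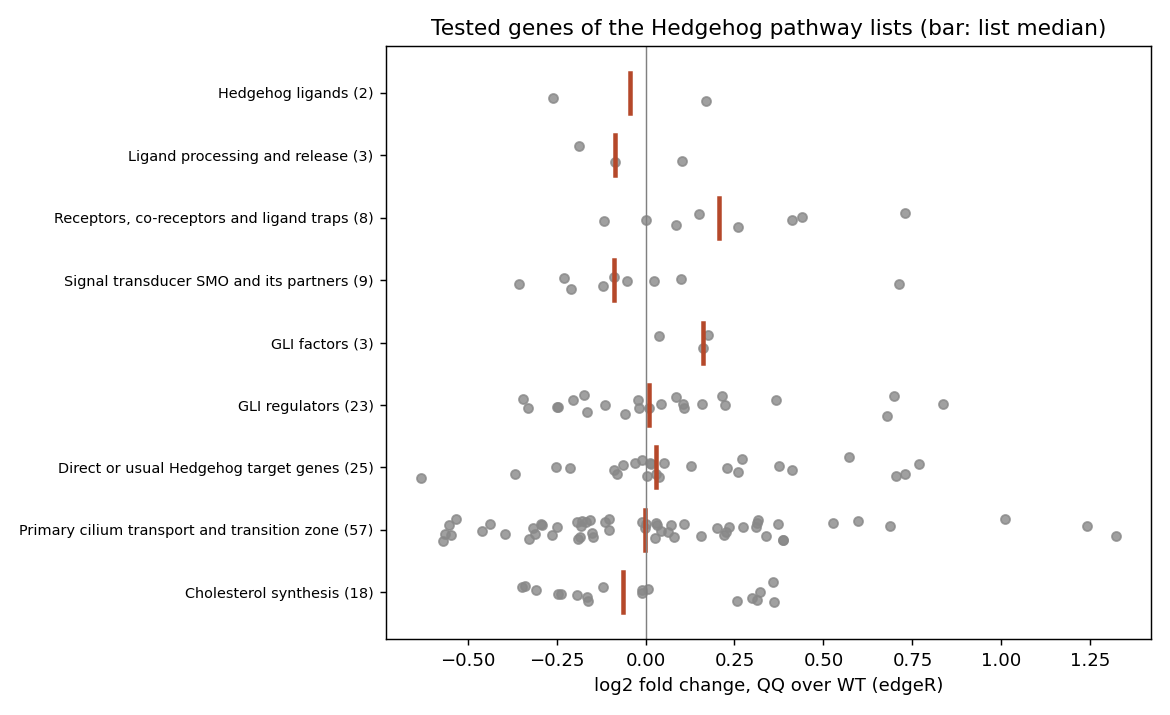
Log2 fold changes (QQ over WT, edgeR) of the tested genes of each pathway list, with the number tested in brackets; each point is 1 gene, spread vertically only for legibility, and the red bar is the list's median. Medians lie between -0.090 and 0.21, and the receptors and ligand traps have 7 of 8 genes above 0.

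Markers of the tissues that send or receive the signal were examined in the same whole-embryo libraries. Of the markers of notochord and floor plate, 8 of 11 tested were higher in QQ, with a median log2 fold change of 0.17. This depended on QQ replicate 3, without which 6 of 11 were higher and the median was 0.0011; it was 0.067 to 0.079 when WT replicate 1, WT replicate 2 or QQ replicate 2 was left out. SPON1, a floor plate matrix protein, had 47.7 ± 6.56 RPKM in QQ and 34.1 ± 6.21 RPKM in WT without overlap (log2 fold change 0.39 ± 0.14, edgeR adjusted p = 0.233), on a row of 5350 bases. KRT8, a keratin of epithelia and notochord, had -0.36 ± 0.14. Of the ventral neural tube markers 7 of 8 were higher, with a median of 0.28 and summed levels of 31.3 to 38.1 RPKM in QQ and 28.2 to 31.4 RPKM in WT. That median was 0.0998 without WT replicate 1, 0.11 without WT replicate 3 and 0.18 without QQ replicate 3. Only 3 of these markers had a mean of at least 2 RPKM, with 2 higher, 1 lower and a median of 0.038. SIM1 had 17, 24 and 22 reads in QQ and 12, 10 and 6 reads in WT (log2 fold change 1.08 ± 0.35, edgeR adjusted p = 0.233). Of the sclerotome and early cartilage markers 6 of 11 were higher and 5 lower, with a median of 0.0010 that ranged from -0.076 to 0.053 when single libraries were left out, and COL2A1, a collagen of notochord and cartilage, had -0.12 ± 0.14. Limb bud markers were higher in 7 of 9, with a median of 0.096, and in 5 of 9 without WT replicate 3, with a median of 0.0071. Without QQ replicate 3 the limb bud median was 0.037. No marker of these 4 lists that had a row was at 0 in all libraries.

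Blood and yolk sac markers varied widely between the embryos of either genotype. All 13 tested erythroid markers were lower in QQ (median log2 fold change -0.79), with summed levels of 300 to 3214 RPKM in QQ and 2164 to 7692 RPKM in WT. Without WT replicate 1 the median was -0.27 with 4 of 14 markers higher, and without QQ replicate 2 it was -0.45 with 3 of 14 higher. Of the liver and yolk sac markers 9 of 11 were higher, with sums of 148 to 1192 RPKM in QQ and 220 to 835 RPKM in WT. That direction depended on QQ replicate 3: without it 3 of 11 were higher, with a median of -0.80, whereas all 11 were higher without WT replicate 3 and 6 of 11 without WT replicate 2. Endothelial markers were higher in 5 of 6, and in 3 of 6 without QQ replicate 1. Trophoblast markers were higher in 5 of 9, and in 3 of 9 without QQ replicate 1. Their part in the differences of PTCH1 and HHIP was not tested.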

How the data were processed

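Total RNA of the 6 embryos was made into TruSeq libraries, and extra-embryonic tissue was genotyped, per the labels' protocols. The submitters' processing notes name the build Sscrofa10.2. Aligner, counter and strand setting: not given in the sources used here. Per the file headers, the table gives for each transcript and library a count of uniquely mapped reads, the covered percent of its length, and the RPKM. The deposited RPKM equals the deposited count scaled by length and library total (largest relative gap 1.29e-07).

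Symbols came from the deposited protein matches through gene tables of Sscrofa11.1 and named 9586 rows; no coordinates are given because the builds differ. All pairs of libraries differed by more than sampling noise (chi-square per degree of freedom of at least 7.54). Counts were tested with edgeR 4.0.16 (R 4.3.3; TMM factors 0.933 to 1.06; default filter with a minimum count of 10 and total of 15; Benjamini-Hochberg threshold 0.05) over all 13957 rows kept. DESeq2 1.42.0, limma 3.58.1 on log2(RPKM + 0.5), other scalings and filters, removal of a loess trend with length (span 0.4) and leaving out libraries were alternatives. The tests were checked on simulated counts, which held no trend with length and no outlying library, so the check does not cover these features. The limit for 0 reads covers counting error only, whereas the 95% intervals of fold changes come from the edgeR fit and hold the spread between embryos as well. Members, lists and tests were chosen with earlier results of these data known. Of 283 genes in 17 lists, 224 had a row; the 2 smallest unadjusted p-values and the highest level were named in each, and any gene in the lists of ligands, receptors, SMO, GLI factors and their regulators. The text names fewer than this rule gives for some lists. The values of 1 listed gene are not reported here. Genes like PTCH1 are the 5 with the highest Pearson r of log2(CPM + 0.5).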

Additional observations from a re-analysis of the deposited data

How the results depend on the processing

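PTCH1, HHIP, SHH, GLI2 and both GLI3 rows kept a positive log2 fold change, and IHH a negative one, under every alternative run. PTCH1 ranged from 0.17 to 0.55 over them. edgeR called 0 rows in either direction, and an unadjusted p under 0.05 was reached by 1540 rows higher and 1298 lower in QQ. DESeq2 called 103 rows higher and 8 lower. Leaving out single libraries, edgeR gave 0 to 2 calls higher and 0 to 1 lower. DESeq2, in fits added after seeing the data, gave 76, 3 and 0 calls higher and 73, 1 and 0 lower when QQ replicates 1, 2 and 3 were omitted in turn. Omitting WT replicates 1, 2 and 3 in turn gave 49, 694 and 152 higher and 4, 154 and 8 lower. The fit without WT replicate 2 also called HHIP (0.82, adjusted p 0.0379) and the short GLI3 row (0.68, adjusted p 0.0373), whose adjusted p ran from 0.140 to 0.526 in edgeR and limma. Removing the length trend without WT replicate 3, also added later, gave 1 call higher. No other alternative called a member.

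Same-numbered QQ and WT libraries had correlations of -0.191, 0.213 and -0.0558 in their deviations from the group means. QQ replicate 2 correlated best with WT replicate 2, whereas QQ replicates 1 and 3 did so with WT replicates 3 and 1. With 3 libraries a group, these values cannot decide whether the replicate numbers pair the samples. The fit with the replicate block called 0 rows and turned GLIS2 to 0.011.

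Other signs turned for values near 0. DISP2 was 0.0081 and SMO 0.046 with library totals, and 0.0039 and 0.047 with limma. GLIS2 was 0.0046 with a mean of at least 2 RPKM, 0.0037 with median-ratio scaling and with DESeq2, 0.096 with library totals, 0.10 with limma, and 0.088 with the length trend removed and WT replicate 3 left out. Leaving out single libraries in edgeR, DISP2 ranged from -0.24 to 0.0014, SMO from -0.10 to 0.029, GLI1 from -0.033 to 0.10, GLIS1 from -0.059 to 0.37 and GLIS2 from -0.13 to 0.13. In DESeq2, signs turned for DISP2 (0.014 omitting QQ replicate 1, 0.0046 omitting WT replicate 2), SMO (0.035, WT replicate 3 omitted), GLI1 (-0.027, WT replicate 1 omitted), GLIS1 (-0.056, WT replicate 2 omitted) and GLIS2 (0.030 omitting QQ replicate 2, 0.0086 and 0.13 omitting WT replicates 1 and 3). PTCH1 minus GLI3 was 0.18 with the GLI3 rows summed, since the long row then sets most of its reads. With 3 embryos a group, the 95% interval of GLI1 ran from -0.42 to 0.49, and the part of depth in its width was not tested.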
